A study of Mus musculus with 2 samples.

Results

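Matrix metalloproteinases, ADAMTS proteases, ADAMTS-like proteins and the tissue inhibitors of metalloproteinases (TIMPs) were examined in the embryonic heart ventricle of Fendrr knockout (KO) and wild-type (WT) mice. The genes were taken by symbol alone: every row named Mmp or Adamts with a number, Adamtsl with a number, or Timp1 to Timp4. This gave 51 genes of the 23276 in the deposited table, namely 23 MMP, 19 ADAMTS, 5 ADAMTS-like and 4 TIMP genes. In the KO embryos both alleles of the long non-coding RNA gene Fendrr had been knocked out in the embryonic stem cells by homologous recombination, and the WT embryos came from wild-type stem cells. Both groups were E12.5 embryos on a C57BL/6 x 129SV background and were grown by tetraploid complementation, where a tetraploid host supplies mainly the placenta and yolk sac while the stem cells build the embryo. Each genotype is 1 strand-specific library of ribosomal RNA-depleted RNA from 4 pooled ventricles. The comparison asks how ventricular gene expression differs when Fendrr is missing.

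MMPs and ADAMTS proteases are zinc enzymes that are made as inactive precursors and cut extracellular matrix proteins and matrix-bound signals, while TIMPs bind their active sites. In the embryonic heart the myocardium and endocardium are first separated by a gel of hyaluronan and the proteoglycan versican, the cardiac jelly, which ADAMTS proteases clear as trabeculae form, and the same gel fills the cushions that become valves. ADAMTS-like proteins share the matrix-binding part of the ADAMTS proteases but lack the protease domain.

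Levels are the authors' FPKM, a fragment count scaled by transcript length and library size. Being per length, they can be compared roughly between genes, and other influences on the level of a gene were not tested. There is 1 library a genotype, so every difference compares those libraries alone, without replicates, and no p-value is given. The libraries were sequenced on separate runs with different base calling, so run and genotype cannot be told apart. The row under the older symbol of Fendrr, 1110050K14Rik, was listed at 0 in KO and at 0 in WT, so the targeted gene does not check the labels. Total depth is unknown, and low values put the KO library at 1.26 times the fragments of the WT library if all mapped fragments were used for scaling. A gene is called measured where its mean over both libraries was at least 1 FPKM, which 24 of the 51 members and 11349 of all 23276 genes met. Of the other 27 members, 13 were listed at 0 in both libraries, 2 in one of them, and 12 had low values in both. Zeros in both libraries were common in the whole table, with 6372 of the 23276 genes, so the members were not unusual in this. A 0 may stand for a failed estimate.

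The members split by position and promoter. All 10 MMP genes of the cluster on chromosome 9 (Mmp13, Mmp12, Mmp1b, Mmp3, Mmp1a, Mmp10, Mmp8, Mmp27, Mmp20 and Mmp7) were listed at 0 in KO and at 0 in WT. In RefSeq on GRCm38 these are the only protein-coding genes between the first and the last of them. They hold the collagenases, the stromelysins Mmp3 and Mmp10, the matrilysin Mmp7, the macrophage elastase gene Mmp12 and the enamel protease gene Mmp20. The other members at 0 in both libraries lie elsewhere: Mmp9, the gelatinase B of leukocytes and osteoclasts, Adamts13, the von Willebrand factor-cleaving protease of plasma, and Timp4, an inhibitor best known from adult heart.

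Promoters of 3 genes of this cluster are shown because they carry the motifs that most of it shares. Sequences are from RefSeq on GRCm38.p6, 250 bases before to 50 bases after the annotated start, all 3 on the plus strand, at chr9:7272264-7272563 (Mmp13), chr9:7445572-7445871 (Mmp3) and chr9:7502092-7502391 (Mmp10). Capitals mark TGANTCA, the core of the binding site of AP-1 (Fos and Jun) factors, and TATAAA, the TATA box.
Mmp13: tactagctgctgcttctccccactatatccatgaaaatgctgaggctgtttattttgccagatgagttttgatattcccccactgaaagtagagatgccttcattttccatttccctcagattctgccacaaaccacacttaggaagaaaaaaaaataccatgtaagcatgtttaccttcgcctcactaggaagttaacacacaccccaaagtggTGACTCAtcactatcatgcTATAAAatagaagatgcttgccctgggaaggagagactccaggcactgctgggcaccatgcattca
Mmp3: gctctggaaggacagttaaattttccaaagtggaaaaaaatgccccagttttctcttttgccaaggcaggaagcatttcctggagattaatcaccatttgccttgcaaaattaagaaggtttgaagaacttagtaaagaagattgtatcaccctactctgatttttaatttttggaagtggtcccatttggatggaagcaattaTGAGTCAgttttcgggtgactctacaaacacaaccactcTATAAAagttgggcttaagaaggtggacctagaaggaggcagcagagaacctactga
Mmp10: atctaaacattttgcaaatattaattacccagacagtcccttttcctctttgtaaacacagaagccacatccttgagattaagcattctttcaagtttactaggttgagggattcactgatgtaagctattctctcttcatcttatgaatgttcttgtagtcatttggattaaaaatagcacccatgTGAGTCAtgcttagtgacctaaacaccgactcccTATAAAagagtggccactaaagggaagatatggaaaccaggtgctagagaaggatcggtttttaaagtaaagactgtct

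In Mmp13 the TGANTCA match began 35 bases before the start and the TATAAA match 16 bases before it. In Mmp3 these distances were 46 and 7 bases, and in Mmp10 they were 63 and 29 bases. Both motifs therefore stood within 100 bases of the start in the same order in all 3 genes. RefSeq promoters could be matched for 36 of the 51 members, by symbol, and those of Adamts4, Adamts5, Adamts6, Adamts7, Adamts8, Adamts10, Adamts15, Adamts16, Adamts19, Adamtsl1, Mmp2, Mmp9, Mmp16, Mmp17 and Mmp19 were not used here. TGANTCA reads the same on both strands, TATAAA was searched on both, no match of one overlapped the other, and a gene with several starts was counted if any of its windows matched. TGANTCA was present in 8 of the 10 cluster genes and in 0 of the 26 other members, against 8.35% of the 16139 genes with a promoter and a row, and 12.9% of the 4084 of those listed at 0 in both libraries. TATAAA was present in 9 of the 10 cluster genes and in 3 of the other 26 (Adamts1, Adamtsl2 and Mmp21), against 14.3% of all and 27.2% of those at 0. In Mmp8 the TATAAA match was on the opposite strand only, and in Mmp12 it began after the annotated start. Both motifs occurred in 8 of the 10, against 1.91% of all genes and 4.26% of those at 0. A match is a description of the letters and not of a bound site, and neighbouring genes of a duplicated cluster are not independent of each other.

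The cluster promoters were also poor in the dinucleotide CG. Taking the highest count over a gene's starts, CG occurred 7 to 41 times (median 20.5) in the windows of the 14 measured members with a promoter, and 0 to 7 times (median 1.5) in the 10 cluster genes. The medians over all genes were 23 for measured ones and 2 for those listed at 0 in both libraries, a like division. Low members above 0 were not poor in CG, however: 9 of the 10 with a promoter had 18 to 46, and Mmp21 had 2. Low counts were thus found mainly among the members at 0, and the count did not separate the measured members from the low ones. Promoters of 3 measured members whose levels differed between the libraries are shown with every CG in capitals, all on the plus strand of GRCm38.p6, at chr14:54431348-54431647 (Mmp14, 10 CG), chr8:95352046-95352345 (Mmp15, 22 CG) and chr11:50601835-50602134 (Adamts2, 41 CG). Mmp14 and Adamts2 were higher in KO and Mmp15 lower, with values given further on.
Mmp14: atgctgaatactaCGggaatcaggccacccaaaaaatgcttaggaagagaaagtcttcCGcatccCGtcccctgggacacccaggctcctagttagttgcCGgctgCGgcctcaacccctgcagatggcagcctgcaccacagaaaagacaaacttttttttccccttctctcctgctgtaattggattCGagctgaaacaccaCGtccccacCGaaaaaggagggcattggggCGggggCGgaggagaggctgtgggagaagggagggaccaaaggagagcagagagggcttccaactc
Mmp15: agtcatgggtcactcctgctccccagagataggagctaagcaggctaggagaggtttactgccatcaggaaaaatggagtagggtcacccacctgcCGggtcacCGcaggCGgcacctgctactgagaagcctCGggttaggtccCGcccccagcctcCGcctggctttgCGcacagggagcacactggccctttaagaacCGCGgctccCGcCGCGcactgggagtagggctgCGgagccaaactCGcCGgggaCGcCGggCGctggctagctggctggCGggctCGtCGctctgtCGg
Adamts2: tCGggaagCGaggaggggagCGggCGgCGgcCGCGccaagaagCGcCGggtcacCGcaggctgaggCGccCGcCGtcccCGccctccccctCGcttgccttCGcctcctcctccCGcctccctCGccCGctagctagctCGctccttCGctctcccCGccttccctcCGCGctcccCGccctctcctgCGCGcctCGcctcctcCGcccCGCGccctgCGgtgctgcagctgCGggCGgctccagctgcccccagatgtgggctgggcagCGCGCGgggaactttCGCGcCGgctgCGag

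**Figure D1:**
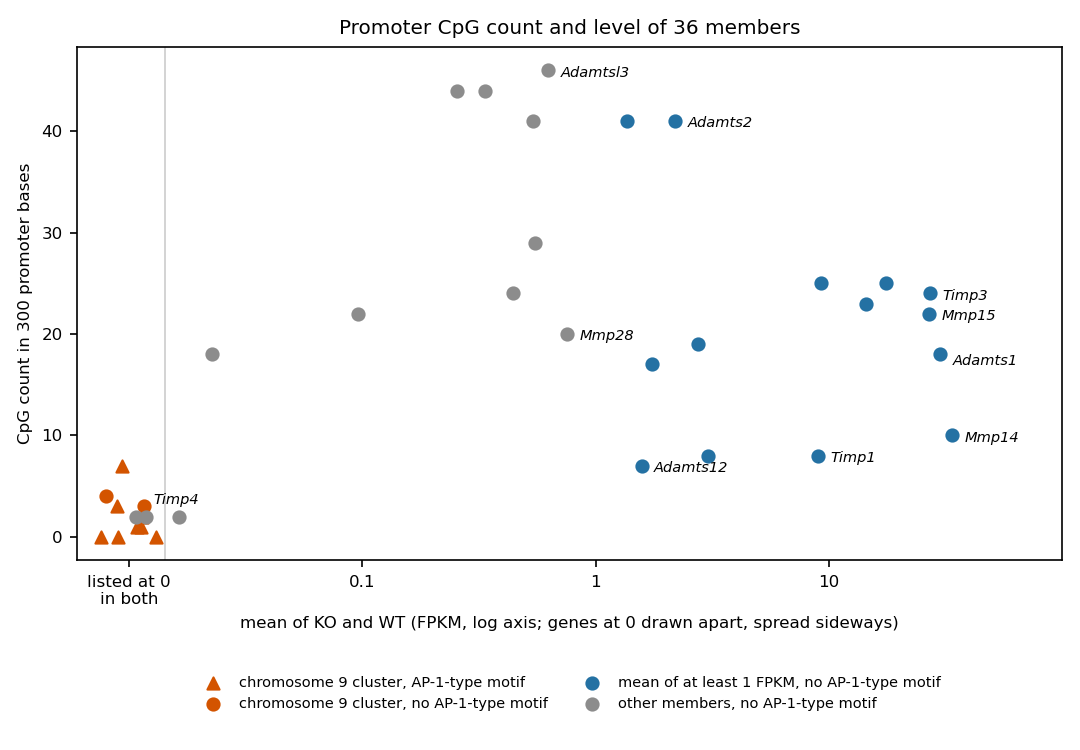
CpG count in the 300 promoter bases (vertical axis, highest over a gene's starts) against the mean of KO and WT in FPKM (horizontal log axis) for the 36 members with a promoter, with triangles for those that hold TGANTCA and genes at 0 in both libraries drawn apart and spread sideways. The 10 cluster genes sit at 0 to 7 and the 14 measured members at 7 to 41.

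On the log2((KO + 1)/(WT + 1)) scale, which understates differences of low genes, the measured members leaned towards higher values in KO. Of the 24, 19 had a higher and 5 a lower value in KO, and with quantile normalization these counts were 22 and 2. The share of all measured genes with a higher value in KO was not counted, so these counts have none beside them. The median of all measured genes was -0.11 on this scale, and 21 of the 24 members lay above it, against 50.0% of all measured genes by construction. The members' median was 0.13, which is 0.24 above that of all genes. At least 2-fold higher in KO was 1 of the 24, Adamts8, against 0.467% of all measured genes, and 0 were at least 2-fold lower, against 0.388%. These shares stand for 53 higher and 44 lower genes, and with median centring the split was 62 higher and 25 lower. The range over 95% of all genes was -0.64 to 0.49, and 2 members, Adamts8 and Adamts2, lay outside it, both above. Of the 24 members 10 were in the top 10% of all measured genes and 1, Mmp15, in the bottom 10%. In such bulk tissue, fewer cells of a type and less RNA per cell cannot be told apart.

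The lean was present at each level from 1 FPKM up. Of the 14 members that averaged under 1 FPKM and had a value, 8 were higher and 6 lower in KO. No all-gene share was counted for these. Between 1 and 3 FPKM the 8 members had a median log2 ratio of 0.21, against -0.042 for the 2441 genes of that level. From 3 to 10 FPKM the 9 members had 0.058 and the 4037 genes -0.10, and from 10 to 40 FPKM the 7 members had 0.17 and the 3506 genes -0.14. Members above the median of their own level numbered 22 of 24. The members' median transcript was 2251 nt long with 53.1% GC in GENCODE vM21, against 1379 nt and 50.4% for the 10570 measured genes (93.1%) that could be matched there. Genes within the members' middle range of length had a median log2 ratio of -0.10, and those within their middle range of GC content -0.12. The ranges were wide and taken 1 property at a time. A part of length or GC content in the lean was not tested.

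**Figure D2:**
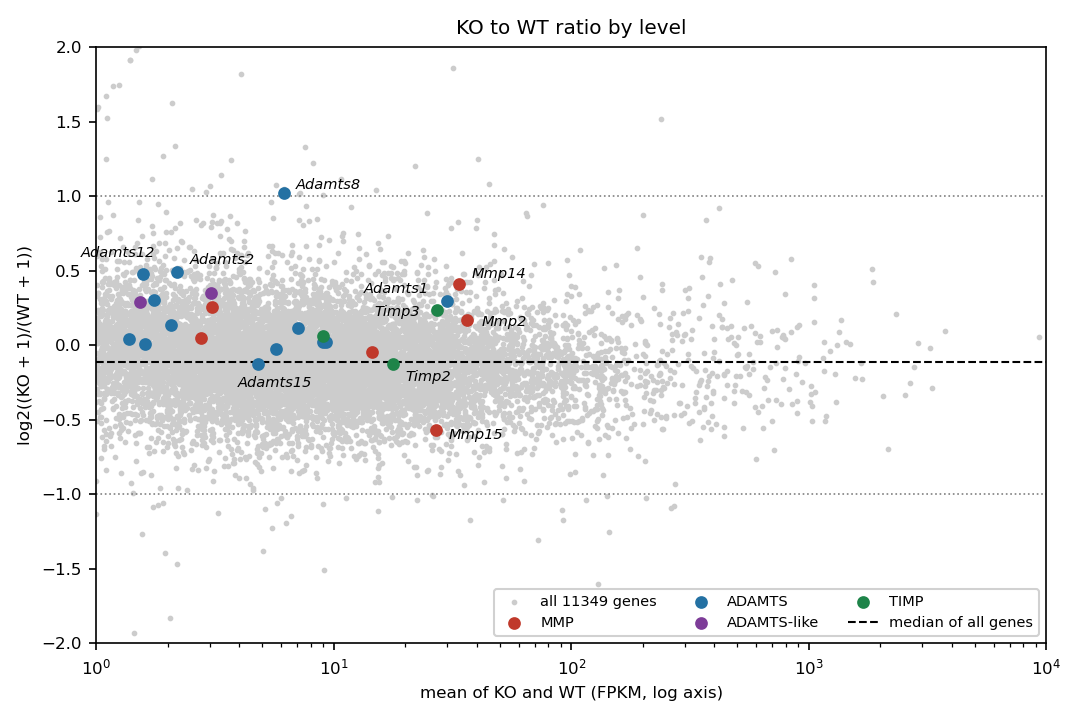
Log2((KO + 1)/(WT + 1)) of each measured gene (vertical axis) against its mean of KO and WT in FPKM (horizontal log axis), with the 24 measured members coloured by family, the dashed line at the median of all genes (-0.11) and dotted lines at the 2-fold limits, with 24 genes beyond the axes. Adamts8 lies at 1.02 and Mmp15 at -0.57, and 21 members lie above the dashed line.

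Mmp2 was the most abundant MMP in each library, with the membrane-bound Mmp14 and Mmp15 next. Mmp2, the gelatinase that cuts denatured and basement membrane collagen, was at 38.7 FPKM in KO and 34.3 FPKM in WT, a log2 ratio of 0.17, and was the highest member in either library. Mmp14, the membrane-bound collagenase that activates the Mmp2 precursor at the cell surface, was at 38.6 FPKM in KO and 28.8 FPKM in WT (log2 ratio 0.41). Mmp15, a membrane-bound relative of Mmp14, went the other way, at 21.5 FPKM in KO and 32.4 FPKM in WT (log2 ratio -0.57), and its place in the order of members was the fifth in KO and the second in WT.

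A ratio within a library does not change when a library is multiplied by a common factor. The ratio of Mmp15 to Mmp14 within a library was 0.556 in KO and 1.12 in WT. Mmp16, a further membrane-type MMP, was at 3.42 FPKM in KO and 2.69 FPKM in WT. The sum over the 6 membrane-type genes was 64.1 FPKM in KO and 64.5 FPKM in WT, so that it was nearly level while its main parts differed.

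The remaining measured MMPs had close values in the libraries. Mmp23, a membrane-anchored protease without the hemopexin domain of most MMPs, was at 14.2 FPKM in KO and 14.8 FPKM in WT, a difference whose sign turned with each scaling tried. Mmp11, a stromelysin activated inside the cell by furin, was at 2.81 FPKM in KO and 2.69 FPKM in WT. Together, Mmp2, Mmp14, Mmp15 and Mmp23 made up 93.7% of the summed MMP level in KO and 93.7% in WT.

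The other MMPs with a value averaged under 1 FPKM. Mmp28, the secreted protease epilysin, was at 0.402 FPKM in KO and 1.11 FPKM in WT, and its ratio equals that of 5 KO reads to 11 WT reads or a multiple of these, within 0.1%. Mmp24, a membrane-type MMP of the nervous system, was at 0.297 FPKM in KO and 0.213 FPKM in WT, the ratio of 7 KO reads to 4 WT reads or a multiple. The multiple is not known, so counting error cannot be set beside these differences.

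Mmp17, a membrane-type MMP held by a lipid anchor, was at 0.279 FPKM in KO and 0.372 FPKM in WT, and Mmp19 at 0.316 FPKM in KO and 0.350 FPKM in WT. Mmp25, another lipid-anchored MMP known from neutrophils, was listed at 0 in KO, with 0.0453 FPKM in WT. Mmp21, which is needed for left-right placement of organs, was at 0.0327 FPKM in KO and listed at 0 in WT. None of these 4 genes reached 0.5 FPKM in either library.

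Among the ADAMTS proteases that cut proteoglycans, Adamts8 stood furthest apart. It was at 8.57 FPKM in KO and 3.72 FPKM in WT, an FPKM ratio of 2.30 and a log2 ratio of 1.02, at percentile 99.6 of all measured genes. With a pseudocount of 5 in place of 1 the log2 ratio was 0.64, under the 2-fold limit. Its neighbour on chromosome 9, Adamts15, a protease of the same group, was at 4.55 FPKM in KO and 5.07 FPKM in WT (log2 ratio -0.13). Within a library the ratio of Adamts8 to Adamts15 was 1.88 in KO and 0.735 in WT, so that the order of the neighbours differed between the libraries.

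The main versican-cutting proteases of the developing heart lay closer together. Adamts1, which cuts versican during trabeculation, was at 33.2 FPKM in KO and 26.9 FPKM in WT (log2 ratio 0.29) and was the most abundant ADAMTS gene in each library. Its neighbour on chromosome 16, Adamts5, which trims versican in the valves, was at 2.21 FPKM in KO and 1.92 FPKM in WT. The ratio of Adamts1 to Adamts5 was 14.98 in KO and 13.97 in WT, and this neighbouring pair kept its proportion where Adamts8 and Adamts15 did not.

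Adamts9, a versican-cutting protease secreted by many tissues of the embryo, was at 9.33 FPKM in KO and 9.19 FPKM in WT. Adamts20, whose loss causes a white belt in mice, was at 0.516 FPKM in KO and 0.562 FPKM in WT, and the aggrecanase gene Adamts4 at 0.281 FPKM in KO and 0.229 FPKM in WT. The 7 genes of this group summed to 58.6 FPKM in KO and 47.6 FPKM in WT, a ratio of 1.23, to which Adamts1 and Adamts8 gave most of the difference.

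Proteases that process procollagen and other fibres were at lower levels. Adamts2, which removes the amino-terminal propeptide of fibrillar procollagens, was at 2.73 FPKM in KO and 1.65 FPKM in WT (log2 ratio 0.49, percentile 97.6). Adamts3, a propeptidase that also activates the lymphatic growth factor Vegfc, was at 1.40 FPKM in KO and 1.33 FPKM in WT. Adamts14, the remaining propeptidase, was at 0.305 FPKM in KO and 0.368 FPKM in WT, a log2 ratio of -0.07 that turns sign with median centring.

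Adamts12 and Adamts7, which both cut cartilage oligomeric matrix protein, changed places in the order of levels. Adamts12 was at 2.00 FPKM in KO and 1.15 FPKM in WT (log2 ratio 0.48, percentile 97.4). Adamts7 was at 1.60 FPKM in KO and 1.59 FPKM in WT. Adamts12 was thus above Adamts7 in KO and below it in WT.

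Adamts10 and Adamts6, related proteases that act on fibrillin microfibrils and cell junctions, had close values. Adamts10 was at 7.37 FPKM in KO and 6.72 FPKM in WT, and Adamts6 at 5.62 FPKM in KO and 5.75 FPKM in WT, where the sign again turned with each scaling tried. Adamts19, a gene of the valves in human disease, was at 9.06 FPKM in KO and 8.89 FPKM in WT, which made it one of the 10 highest members in each library.

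Adamts17, a gene of a human short-stature and lens disorder, was at 2.04 FPKM in KO and 1.46 FPKM in WT (log2 ratio 0.31). Adamts16 was at 0.0611 FPKM in KO and 0.0461 FPKM in WT, and Adamts18 at 0.113 FPKM in KO and 0.0787 FPKM in WT. Their ratios equal those of 5 KO reads to 3 WT reads and of 9 KO reads to 5 WT reads, or multiples of these, and counting error is again unknown.

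Of the 5 ADAMTS-like genes 2 were measured, and both lay above the all-gene median, against 50.0% of all measured genes. The other 3 were under 1 FPKM and also had higher values in KO, without an all-gene share to set beside them. Adamtsl2, whose protein binds the latent TGF-beta binding protein Ltbp1 and fibrillin, was at 3.53 FPKM in KO and 2.55 FPKM in WT (log2 ratio 0.35). Adamtsl1 was at 1.78 FPKM in KO and 1.27 FPKM in WT (log2 ratio 0.29). Adamtsl4, a fibrillin-binding protein of the eye, was at 0.568 FPKM in KO and 0.317 FPKM in WT, the ratio of 9 KO reads to 4 WT reads or a multiple.

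Adamtsl5 was at 0.635 FPKM in KO and 0.471 FPKM in WT, and Adamtsl3 at 0.643 FPKM in KO and 0.608 FPKM in WT. Thsd4, which encodes another ADAMTS-like protein under a different symbol, was named after its values were seen. It was at 3.44 FPKM in KO and 3.51 FPKM in WT (log2 ratio -0.02, which is above the median of all genes and turns sign with median centring), so the values were close in the libraries.

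**Figure D3:**
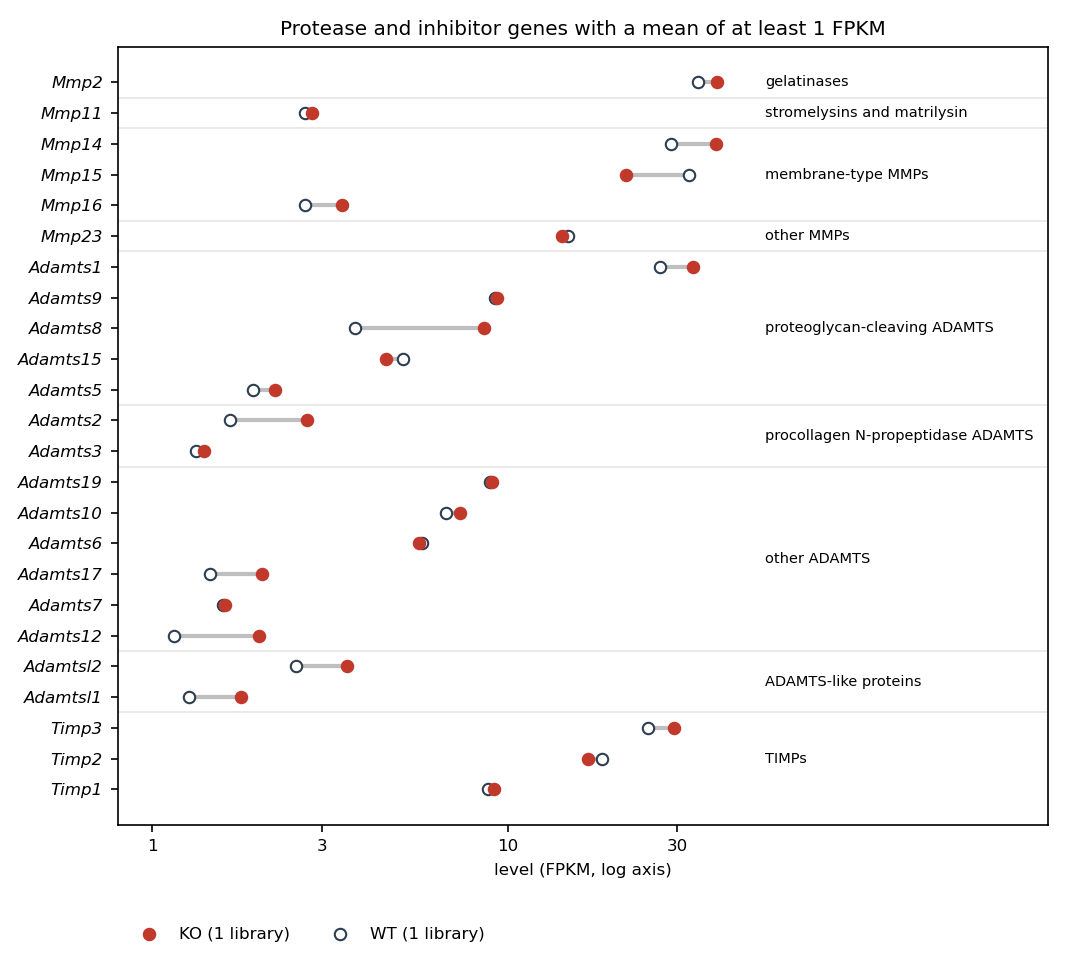
Level in FPKM (horizontal log axis) of the 24 measured members by role, with filled points for the KO library, open points for the WT library and a grey line joining them. Adamts8 has the longest line to the right in KO, at 8.57 against 3.72 FPKM in WT, and Mmp15 the longest to the left, at 21.5 against 32.4 FPKM in WT.

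The inhibitors differed less between the libraries than Mmp14, Mmp15 or Adamts8. Timp3, which is held in the matrix and inhibits both MMPs and ADAMTS proteases, was at 29.3 FPKM in KO and 24.8 FPKM in WT (log2 ratio 0.23). Timp2, which inhibits MMPs and also links the Mmp2 precursor to Mmp14 for its activation, was at 16.8 FPKM in KO and 18.5 FPKM in WT (log2 ratio -0.13, above 0 with quantile normalization). Timp1, a soluble inhibitor, was at 9.18 FPKM in KO and 8.78 FPKM in WT.

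The ratio of Timp3 to Timp2 was 1.74 in KO and 1.34 in WT, and that of Mmp14 to Timp2 was 2.29 in KO and 1.56 in WT. Over the whole families the balance moved little, with a summed MMP to summed TIMP ratio of 2.18 in KO and 2.26 in WT. The sums were 120.6 FPKM of MMP and 55.3 FPKM of TIMP in KO, and 117.7 FPKM of MMP and 52.0 FPKM of TIMP in WT. ADAMTS genes summed to 90.9 FPKM in KO and 76.6 FPKM in WT, a ratio of 1.19. A transcript level is not the amount of active enzyme, since these proteases are activated after secretion or at the cell surface.

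Each of Timp1, Timp3 and Timp4 lies within a synapsin gene in RefSeq. The strands of host and inhibitor were not compared. Whether reads of the host could reach the inhibitor's row in these strand-specific libraries was not tested. The hosts were low: Syn1 was at 0.0383 FPKM in KO and listed at 0 in WT, Syn3 at 0.132 FPKM in KO and 0.148 FPKM in WT, and Syn2 at 0.284 FPKM in KO and 0.168 FPKM in WT. All of these were under 1 FPKM, against 8.78 to 29.3 FPKM for Timp1 and Timp3.

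A list of protease activators, inhibitors and related genes, not all of which act on the members, had a smaller median difference. Of 18 genes in this list 15 were measured, 11 of them exceeded the all-gene median, and 0 were at least 2-fold apart, with a median 0.16 above that of all genes. Bsg, a membrane protein that induces MMPs in neighbouring cells, was at 468 FPKM in KO and 432 FPKM in WT. Furin, the convertase that cuts many of these precursors, was at 10.9 FPKM in KO and 8.63 FPKM in WT (log2 ratio 0.31). Lower in KO were the urokinase receptor gene Plaur, at 0.958 FPKM in KO and 1.81 FPKM in WT (log2 ratio -0.52), and the convertase gene Pcsk7, at 3.73 FPKM in KO and 5.29 FPKM in WT (log2 ratio -0.41), both named after their values were seen. Cst3, which encodes cystatin C, an inhibitor of cysteine proteases, was at 106.1 FPKM in KO and 120.7 FPKM in WT. Reck, a membrane-bound MMP inhibitor named after its values were seen, was at 3.55 FPKM in KO and 2.91 FPKM in WT.

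Substrates of these proteases leaned further. Of 20 genes 16 were measured, 13 were above the all-gene median and 0 were at least 2-fold apart, with a median 0.31 above that of all genes. Col3a1, a fibrillar collagen, was at 174.1 FPKM in KO and 151.9 FPKM in WT, and Bgn, the small proteoglycan biglycan, at 23.3 FPKM in KO and 16.2 FPKM in WT. Vwf, the clotting protein cut by Adamts13, was at 2.60 FPKM in KO and 1.54 FPKM in WT. Col4a1, a basement membrane collagen, was lower, at 64.0 FPKM in KO and 76.1 FPKM in WT. Vcan, which encodes versican and was named after its values were seen, was at 65.2 FPKM in KO and 52.8 FPKM in WT.

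Markers of some cell types moved with the members. Above the all-gene median were 11 of the 12 markers of fibroblasts and cushion mesenchyme, with summed levels of 634 FPKM in KO and 517 FPKM in WT and a list median 0.42 above that of all genes. Dpt, a fibroblast matrix gene with the log2 ratio furthest from the all-gene median in this list, was at 10.4 FPKM in KO and 4.95 FPKM in WT. Dcn, named after its values were seen, was the marker below that median, at 42.3 FPKM in KO and 46.2 FPKM in WT. Endothelial and endocardial markers, 9 of 10 above the median, summed to 257 FPKM in KO and 245 FPKM in WT. Emcn, the marker below the median, was at 41.0 FPKM in KO and 50.1 FPKM in WT (log2 ratio -0.28). No marker of these lists was at 0. The mesenchymal list shares Col1a1, Col1a2, Col3a1, Dcn and Lum with the substrates, so these lists are not separate evidence.

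Of the 15 leukocyte markers with a row 9 were measured and 8 of these exceeded the all-gene median, with sums of 95.1 FPKM in KO and 61.2 FPKM in WT. The list median was 0.55 above that of all genes, and 2 of the 9 were at least 2-fold higher in KO: the macrophage protease gene Ctss, at 11.8 FPKM in KO and 4.51 FPKM in WT, and the complement gene C1qb, at 4.41 FPKM in KO and 1.58 FPKM in WT. Other measured markers of this list, named after their values were seen, were lower in KO. Cd68 was at 1.03 FPKM in KO and 1.44 FPKM in WT, and C1qc at 2.13 FPKM in KO and 2.32 FPKM in WT. Emr1 was at 1.27 FPKM in KO and 1.34 FPKM in WT. C1qc and Emr1 still count as above the all-gene median, which is -0.11. The neutrophil genes S100a8 and S100a9 were listed at 0 in WT only, and Elane in both libraries. The liver and yolk sac markers summed to 33.4 FPKM in KO and 9.19 FPKM in WT, with 3 of 10 measured and Afp at 16.6 FPKM in KO and 0.110 FPKM in WT. Alb was listed at 0 in both libraries, and Apoa1, Serpina1a and Fgb in WT only. The MMPs of neutrophils and macrophages, Mmp8, Mmp9 and Mmp12, were listed at 0 in both libraries, where a 0 may stand for a failed estimate. The part of leukocytes and of liver or yolk sac cells in the members' values was not tested.

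The list medians of the other cell types lay nearer to that of all genes. Cardiomyocyte markers, which check the labelled tissue, summed to 23441 FPKM in KO and 23329 FPKM in WT, and 5 of the 10 exceeded the all-gene median. Single markers differed more than the sum, in both directions. Tnnt2 was at 2174 FPKM in KO and 1524 FPKM in WT (log2 ratio 0.51). Myl3 was at 1651 FPKM in KO and 2671 FPKM in WT (log2 ratio -0.69). Both lay outside the range over 95% of all genes. Of 7 epicardial markers 3 lay above the all-gene median, of 7 measured smooth muscle and pericyte markers 4, and of 8 erythroid markers 4. Their summed levels were 85.7 FPKM in KO and 88.2 FPKM in WT for epicardium, 672 FPKM in KO and 753 FPKM in WT for smooth muscle and pericytes, and 5482 FPKM in KO and 4865 FPKM in WT for erythroid cells.

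**Figure D4:**
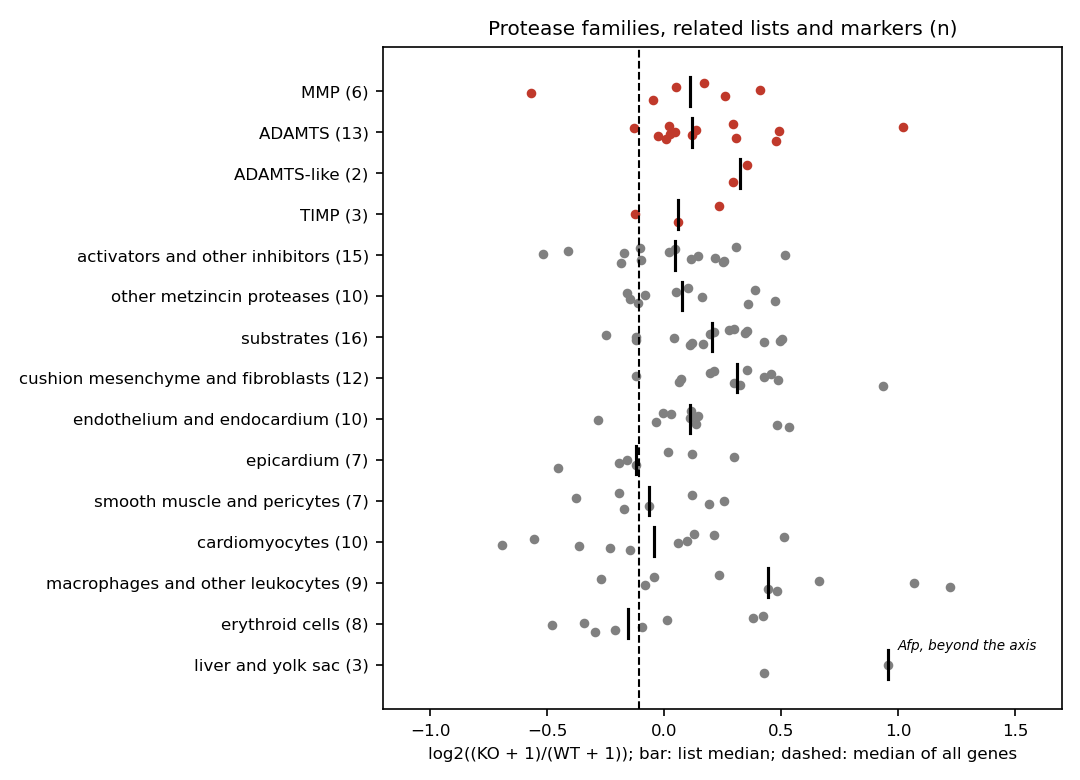
Log2((KO + 1)/(WT + 1)) of measured genes (horizontal axis) in each protease family, in red, and in the related lists and cell type markers, in grey, with a bar at each list's median and a dashed line at the median of all genes (-0.11). The 24 members, the substrates and the mesenchymal markers lie mostly right of the dashed line, and Afp lies beyond the axis at 3.99.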

How the data were processed

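Per the labels' protocols, RNA of 4 pooled ventricles per genotype (500 ng) was depleted of ribosomal RNA and amplified in 15 PCR cycles as a strand-specific library, read for 100 bases. Per the labels, the WT run was stopped early, called by hand and possibly filtered for read length, while the KO run was called by the standard pipeline. The authors deposited FPKM values, 1 per gene symbol and library. The submitters' processing notes name Cufflinks 2.0.2, TopHat2 2.0.6, Bowtie2 2.0.2 and the build mm9. The gene annotation is not given in the sources used here.

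From these values log2((KO + 1)/(WT + 1)) was computed for genes averaging 1 FPKM or more, as a description of 2 libraries. Depth is unknown, so no counting interval is given. Relative depth came from 2213 genes with a mean under 0.3 FPKM, of which 69.1% had ratios within 0.1% of 0.796 times a ratio of small whole numbers. For low members the smallest whole numbers, up to 12, that fitted were given. Every member is named. Of each further list the 2 highest by mean and the 2 with the log2 ratio furthest from the median of all genes could be named, and other names were chosen after their values were seen. Some values under this rule are not reported here. The members and lists were chosen with earlier results of these data known. Promoters and neighbours came from RefSeq on GRCm38, another build than that of the values. The 15 members without a matched promoter were left out of the promoter counts only. Alternatives were other pseudocounts, minimum means and scalings. The log2 ratios, the 2-fold calls and the list medians were tested on simulated data. The promoter, relative depth and scaling steps were not. Python 3.11.15, numpy 2.4.6, pandas 2.3.3 and matplotlib 3.10.9 were used.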

Additional observations from a re-analysis of the deposited data

How the results depend on the processing

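No paired analysis was possible because KO and WT are 1 library each, which also leaves none to drop. The settings tried were pseudocounts of 0.1 and 5, no minimum, a minimum mean of 5 FPKM, upper-quartile scaling, median centring and quantile normalization. The count of members at least 2-fold higher in KO was 1 in each of these except with a pseudocount of 5, where it was 0 and Adamts8 stood at a log2 ratio of 0.64. The count at least 2-fold lower was 0 under all 7. Mmp28, brought in without a minimum, had a WT to KO FPKM ratio of 2.76. With the pseudocount of 1 its log2 ratio was -0.59, short of the limit. Members above the median of all genes were 21 of 24 with either pseudocount, upper-quartile scaling and median centring, 22 of 24 with quantile normalization, 31 of 38 without a minimum and 12 of 13 at a minimum mean of 5 FPKM, where fewer genes are measured. The members' median lay above that of all genes by 0.099 without a minimum, which brings in members averaging under 1 FPKM, and by 0.14 to 0.28 in the other settings. The 3 scalings moved the median of all genes from -0.11 to between -0.0071 and 0. The log2 ratio of Adamts6 and Mmp23 changed sign under all 3, and that of Timp2 with quantile normalization. Unknown depth limits every member under 1 FPKM.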

Other observations

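Other zinc proteases of the same superfamily, the ADAM and astacin families and the pappalysins, leaned in the same direction as the members. Of 16 such genes 10 were measured, 7 were above the all-gene median and 0 were at least 2-fold apart, with a median 0.18 above that of all genes. For the families of the members this distance was 0.22 (MMP), 0.23 (ADAMTS), 0.43 (ADAMTS-like) and 0.17 (TIMP). The abundant membrane proteases Adam9 and Adam19 were at 29.7 and 17.4 FPKM in KO, against 27.7 and 15.5 FPKM in WT. Adam10, which releases the Notch receptor fragment, was at 11.6 FPKM in KO and 8.64 FPKM in WT, and Adam23, a family member without protease activity, at 1.94 FPKM in KO and 1.12 FPKM in WT. Tll2 was listed at 0 in both libraries.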
